A study of Mus musculus with 16 samples.

Results

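Loss of the pyruvate dehydrogenase complex (PDC) in effector CD8 T cells (TE) was described from 8 of the 16 ATAC-seq libraries of the series, 4 labelled wildtype (TPdh+/+, WT TE) and 4 labelled knockout (TPdh-/- TE). All 8 were chosen by these labels and not by any measured value, and peaks on the 19 autosomes were kept, 233495 of the 239201 peaks (97.6%) of the 8 lists. In TPdh-/- mice a floxed Pdha1 was crossed to a Cre transgene driven by the Cd4 promoter, so that deletion takes place in all T cells that pass through the CD4-expressing stage, and not in CD8 T cells alone. Mice of both sexes, 8 to 12 weeks old, were used, and OT-I cells, whose receptor recognizes an ovalbumin peptide, were activated with that peptide for 3 days and cultured with IL-2 for 4 days. The peptide and the IL-2 were given to both genotypes. The labels do not state whether the 4 libraries of a genotype came from separate mice, so p-values measure the spread between libraries, which may be technical. The remaining 8 libraries, 4 WT and 4 TPdh-/- memory T cells (TM), serve below for comparison only.

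PDC carries pyruvate, the end product of glycolysis, into the mitochondrial tricarboxylic acid (TCA) cycle as acetyl-CoA. Pdha1 encodes its E1 alpha subunit, Dlat and Dld the E2 and E3 enzymes, and Cs the citrate synthase that takes up the acetyl-CoA. Acetyl groups exported as citrate and released by Acly, or made from acetate by Acss2, are also the substrate of histone acetylation, a mark of open promoters. ATAC-seq inserts adapters into open chromatin, so that a peak marks a site where many fragments start. Active promoters, most of them CpG-rich, are usually the strongest peaks in such data, while enhancers lie in introns and between genes.

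The genotype itself could not be read from these data. Pdha1 (chrX:160122209-160138413) lies outside the autosomal lists, and within 5000 bp of the gene there were 2 peaks in WT TE 2, with a highest summit pileup of 9 fragments, and 1 each in TPdh-/- TE 1 (5 fragments) and TPdh-/- TE 3 (4 fragments). The other 5 TE libraries had none. T cell identity was only weakly visible: of 17 T cell genes, 1 to 3 had a promoter peak in each WT TE library and 1 to 6 in each TPdh-/- TE library. Cd8b1, which encodes one chain of the CD8 coreceptor, had one in WT TE 2, WT TE 4 and TPdh-/- TE 4, and Cd8a in WT TE 3 alone. No promoter of 11 B cell, 12 myeloid and 7 NK cell marker genes had a peak in WT TE, and of 9 erythroid genes 1 did, in WT TE 1. In TPdh-/- TE 1 to 4 the peaks numbered 1, 0, 3 and 1 for B cell, 0, 1, 1 and 0 for myeloid, 0, 0, 1 and 0 for NK cell and 0, 0, 1 and 1 for erythroid genes, and those of 8 CD4 helper and regulatory genes 0, 0, 1 and 4, against 1, 0, 0 and 0 in WT TE. Of all 20780 protein-coding genes, 24.0%, 25.4%, 8.82% and 19.5% had a promoter peak in WT TE 1 to 4 and 12.8%, 8.46%, 27.2% and 29.1% in TPdh-/- TE 1 to 4. B cell genes were at 9.09%, 0%, 27.3% and 9.09% in the latter, and the part of the marker genes in the results was not tested.

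Depth differed with genotype. Background coverage, or how many fragments covered an average position of the genome, was 0.636 to 1.55 in WT TE and 0.173 to 0.445 in TPdh-/- TE, a log2 difference of -1.89 with no overlap (exact permutation p = 0.0286, two-sided, the smallest that 4 against 4 libraries can give). The lists ran the other way, from 2270 to 18783 peaks in WT TE and from 32144 to 76520 in TPdh-/- TE. At 25.5% to 76.0% of TPdh-/- TE peaks the summit pileup was 4 fragments or fewer, against none in WT TE. Depth and genotype therefore cannot be told apart in what follows. The main results are given with all peaks and with lists of equal size, others with the lists named beside them. The equal lists are the best 2270 peaks of each library by column 9 of the deposited lists, the −log10 q-value. A peak with rank 1 has the highest value of its library. In the equal lists the median summit pileup was 13 to 18 fragments in WT TE and 7 to 13 in TPdh-/- TE.

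Sequences of 6 promoters that stood in the equal lists of all 4 WT TE and no TPdh-/- TE library, and of 2 sites with a peak in all 4 TPdh-/- TE and no WT TE library, are shown as examples of the regions counted below. Of the 6 promoters, Zyg11b and Ccnf had no peak in any full TPdh-/- TE list, and the other 4 had one in 3 of them. The promoters are printed as the 150 bases before the annotated start, 5′ to 3′ on the strand of the gene, from the RefSeq copy of GRCm38. None of these bases lies in an annotated exon. Capitals mark the GC box GGGCGG, bound by SP and KLF factors, and the CCAAT box, bound by NF-Y, on either strand.
Slc30a1 (chr1:191906617-191906766, plus strand): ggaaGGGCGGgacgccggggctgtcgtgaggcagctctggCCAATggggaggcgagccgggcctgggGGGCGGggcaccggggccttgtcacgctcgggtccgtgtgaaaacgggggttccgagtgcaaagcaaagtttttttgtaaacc
Qdpr (chr5:45450237-45450386, minus strand): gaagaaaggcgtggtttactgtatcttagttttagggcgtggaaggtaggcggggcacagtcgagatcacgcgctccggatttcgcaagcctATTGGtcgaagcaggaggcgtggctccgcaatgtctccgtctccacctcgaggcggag
Zyg11b (chr4:108301097-108301246, minus strand): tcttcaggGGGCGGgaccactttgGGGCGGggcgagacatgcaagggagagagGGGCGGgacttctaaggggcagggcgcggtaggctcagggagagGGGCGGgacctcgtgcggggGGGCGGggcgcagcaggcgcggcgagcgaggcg
Ccnf (chr17:24251485-24251634, minus strand): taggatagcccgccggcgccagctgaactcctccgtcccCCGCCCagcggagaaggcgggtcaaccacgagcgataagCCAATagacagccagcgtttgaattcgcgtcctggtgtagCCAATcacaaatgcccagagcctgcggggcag
Cs (chr10:128337584-128337733, plus strand): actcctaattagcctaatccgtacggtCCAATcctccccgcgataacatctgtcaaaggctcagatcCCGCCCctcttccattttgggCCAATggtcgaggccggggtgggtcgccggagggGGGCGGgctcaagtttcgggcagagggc
Aco1 (chr4:40142931-40143080, plus strand): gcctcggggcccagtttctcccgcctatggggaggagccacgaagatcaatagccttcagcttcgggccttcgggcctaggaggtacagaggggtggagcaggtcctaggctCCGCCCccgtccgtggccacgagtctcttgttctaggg

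The 2 sites of TPdh-/- TE are printed on the plus strand. In the Litaf site, capitals mark the 12-letter word that occurs 3 times in it. In the Pid1 site they mark a GC box and a CCAAT box.
Litaf site (chr16:10975068-10975247, plus strand): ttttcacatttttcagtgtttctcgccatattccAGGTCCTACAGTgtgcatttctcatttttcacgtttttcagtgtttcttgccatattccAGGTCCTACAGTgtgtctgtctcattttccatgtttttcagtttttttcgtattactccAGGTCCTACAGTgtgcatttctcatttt
Pid1 site (chr1:84373478-84373652, plus strand): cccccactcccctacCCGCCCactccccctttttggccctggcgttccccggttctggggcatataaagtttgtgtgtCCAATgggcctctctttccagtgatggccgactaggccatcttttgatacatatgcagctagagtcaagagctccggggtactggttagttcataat
The Litaf and Pid1 sites are soft-masked as repeats in the reference over 97.8% and 100% of their whole length, and the 6 promoter stretches over 0%. The capitalized word of the Litaf site occurred in 19 to 22 peaks of each WT TE equal list and 15 to 23 of each TPdh-/- TE equal list. It lay in 16 (19.8%) of the 81 regions with a peak in all 8 libraries.

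Promoters made up less of the TPdh-/- TE lists, and introns and intergenic sequence more. A summit within 1000 bp of the start of a protein-coding transcript was found at 52.4%, 26.2%, 70.04% and 68.7% of peaks in WT TE 1 to 4 and at 7.42%, 5.47%, 7.80% and 11.4% in TPdh-/- TE 1 to 4. The difference in means was -46.3 percentage points (54.3% ± 20.4 against 8.01% ± 2.46, SD, n = 4; exact permutation p = 0.0286, adjusted 0.0357 over 10 class comparisons). In equal lists the shares were 78.3%, 60.6%, 70.04% and 79.6% against 10.4%, 3.92%, 9.38% and 24.2%, a difference of -60.2 points (exact permutation p = 0.0286, adjusted 0.0357). The lowest WT TE library stood above the highest TPdh-/- TE library in both settings. Of autosomal positions taken every 1000 bp, 3.93% lay at such a promoter, 40.3% in an intron and 50.1% between genes.

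The distal classes moved the other way. Introns held 20.2% ± 9.70 (SD, n = 4) of the WT TE list and 40.7% ± 1.59 of the TPdh-/- TE list. Intergenic sites held 21.4% ± 10.5 and 46.3% ± 0.810. Exons rose from 1.40% to 2.70%. Each of these 3 differences had an exact permutation p of 0.0286 (adjusted 0.0357), also in equal lists, where introns went from 11.1% ± 3.89 to 37.1% ± 4.28 and intergenic sites from 13.7% ± 4.69 to 47.2% ± 4.67 (SD, n = 4). Over all peaks the TPdh-/- TE libraries had 38.6% to 42.3% in introns and 45.1% to 47.0% between genes, close to the shares of the genome itself. Promoters of noncoding genes did not pass the threshold (all peaks, -0.301 points, exact permutation p = 0.0571, adjusted 0.0635; equal lists, -0.132 points, p = 0.686).

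In number, with all peaks, the difference in promoter peaks was within the spread between libraries. There were 4472, 4918, 1590 and 3610 in WT TE 1 to 4 and 2592, 1759, 5967 and 6254 in TPdh-/- TE 1 to 4, a log2 difference of 0.11 (exact permutation p = 0.857), with overlapping libraries. By the ratio of geometric means, intron peaks were 15.4-fold and intergenic peaks 16.5-fold more numerous in TPdh-/- TE (log2 differences 3.94 and 4.04), exon peaks 13.7-fold (3.78) and noncoding promoters 6.23-fold (2.64), each with an exact permutation p of 0.0286 (adjusted 0.0357). By the ratio of arithmetic means, intron and intergenic peaks were 8.82-fold and 9.46-fold more numerous. Without single libraries the geometric ratios went from 9.32 to 26.4 and from 10.3 to 28.6. The lower promoter share in TPdh-/- TE went with more distal peaks and not with fewer promoter peaks beyond the spread between libraries. With all peaks, leaving out any 1 TPdh-/- TE library gave p = 0.0571 in the exact permutation test of 4 against 3 libraries.

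**Figure D1:**
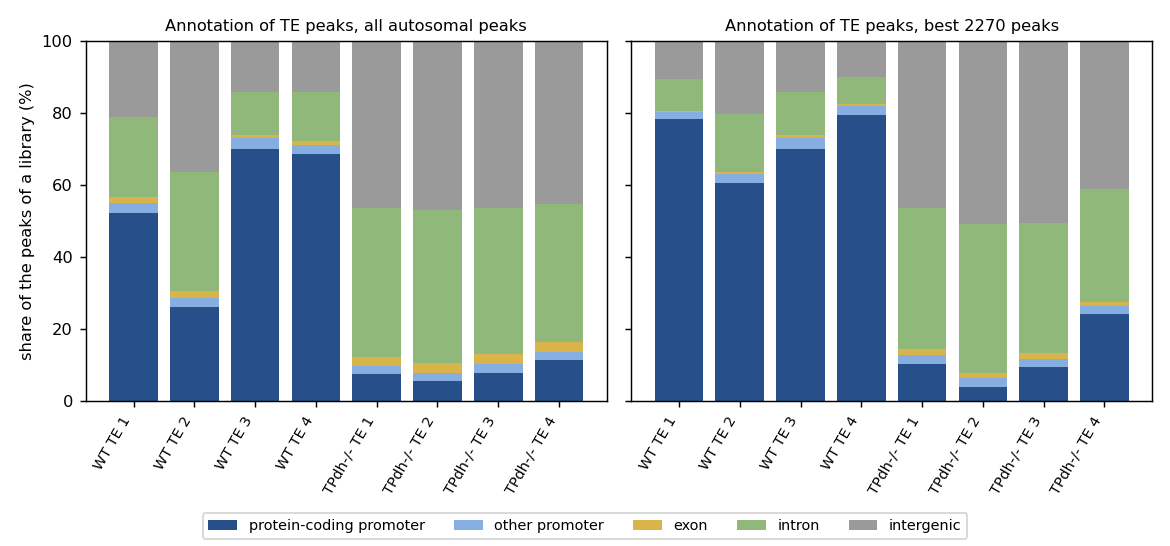
Percent of autosomal peaks (vertical axis) in each annotation class of the summit as stacked bars, 1 for each of the 4 WT TE and 4 TPdh-/- TE libraries (horizontal axis), with all peaks (left) and with the best 2270 peaks (right). Protein-coding promoters take 60.6% to 79.6% of the WT TE bars and 3.92% to 24.2% of the TPdh-/- TE bars in the right panel, and introns and intergenic sites fill the rest of the latter.

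The exchange did not begin at the top of the lists. Among the 50 best peaks of a library, 14% to 22% lay at a protein-coding promoter in WT TE and likewise 14% to 22% in TPdh-/- TE. From rank 51 to 200 the share was 54.7% to 70% in WT TE and 1.33% to 15.3% in TPdh-/- TE. From rank 201 to 500 it was 72% to 87.7% against 2.67% to 23.3%, and from 1501 to 2270 it was 53.5% to 81.8% against 2.60% to 24.3%. In every range of ranks after the first 50 the genotypes did not overlap. Beyond rank 2270 the 3 longer WT TE lists held 42.4% to 62.2% promoters between ranks 2271 and 5000, and the TPdh-/- TE lists 5.75% to 19.7%. Peaks with a summit in soft-masked repeat sequence took 70% to 94% of the first 50 ranks in the 8 libraries. From rank 51 to 250 they took 16% to 27.5% in WT TE and 64% to 74.5% in TPdh-/- TE. Promoters within the first 50 ranks were not split by masking. With all peaks, 50% of the 20 protein-coding promoters held by all 8 libraries had a soft-masked summit.

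**Figure D2:**
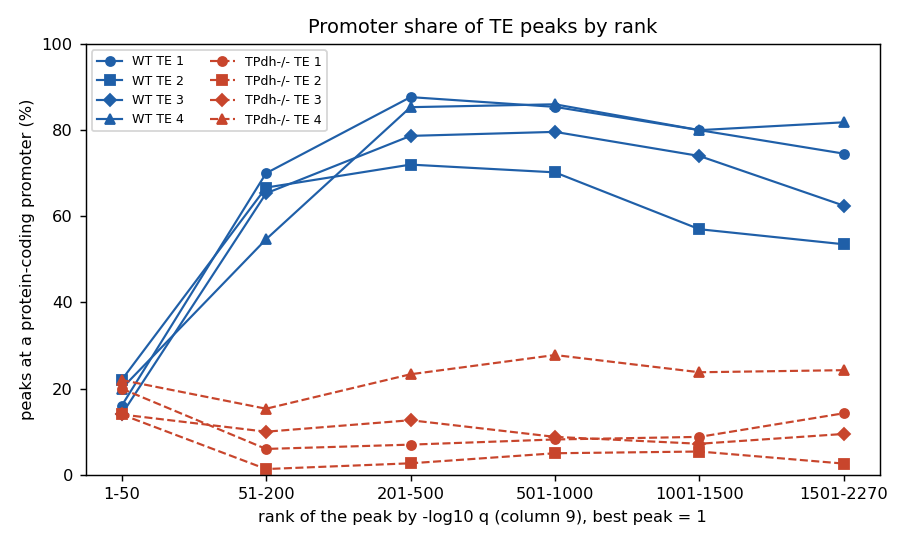
Percent of peaks at a protein-coding promoter (vertical axis) by range of rank (horizontal axis, rank 1 has the highest −log10 q-value) for each of the 8 TE libraries. The libraries coincide at ranks 1 to 50 (14% to 22%) and separate by genotype in each later range.

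The single regions behind these shares were counted next. Overlapping peaks of the 8 equal lists merged into 13690 regions, of which 99 (0.723%) were held by all 4 WT TE and no TPdh-/- TE library and 1 (0.0073%) the other way round. Of the 99, 94 were protein-coding promoters, 87 of them with the summit within 200 bp of a start, and they were spread over all 19 autosomes. By rank, 134 regions (0.979%) had every WT TE library ahead of every TPdh-/- TE library, and 2 (0.0146%) the reverse. Asking for at least 3 of 4 libraries against none gave 498 regions (3.64%) for WT TE, 461 of them protein-coding promoters, and 10 (0.073%) for TPdh-/- TE. With all peaks the same rule gave 381 (0.186%) and 439 (0.215%) of 204393. Of the regions in equal lists, 82% came from a single library and 48 (0.351%) were held by all 8. Leaving out WT TE 1, 2, 3 or 4 raised the 99 to 159, 233, 633 or 182 and the 134 to 205, 300, 854 or 236, and leaving out a TPdh-/- TE library moved neither beyond 1.5 times. With the best 1000 peaks of each library the 99 became 31 and the 134 became 42, and the 99 became 23 where a peak had to cover at least 50% of its region. A call of 4 against 0 libraries has a Fisher's exact p of 0.0286, which no adjustment over so many regions passes.

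The 12 with the best mean rank in WT TE are named here. Inpp5f encodes an inositol phosphatase, and its promoter (chr7:128611018-128611755) ranked 231, 564, 185 and 98 in WT TE 1 to 4, with summit pileups of 21, 15, 18 and 28 fragments. In TPdh-/- TE 1, 3 and 4 it ranked 5159, 19974 and 34077 with 7, 5 and 5 fragments, and TPdh-/- TE 2 had no peak. Slc30a1 encodes a zinc exporter of the plasma membrane, and its promoter (chr1:191906273-191906959) ranked 287, 264, 342 and 203 in WT TE (25, 20, 19 and 25 fragments). Its ranks were 23373, 45844 and 3609 in TPdh-/- TE 1, 3 and 4 (5, 4 and 11 fragments), again with no peak in TPdh-/- TE 2. As a share of the length of its list, Slc30a1 stood at 1.41% to 15.1% in WT TE and at 66.9%, 59.9% and 6.56% in TPdh-/- TE 1, 3 and 4, so that TPdh-/- TE 4 lay within the range of WT TE.

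Qdpr, which encodes the reductase that regenerates tetrahydrobiopterin, had the best single rank of these promoters. Its ranks were 153, 62, 829 and 817 in WT TE, with 26, 32, 13 and 19 fragments, and 2999, 11325 and 3572 in TPdh-/- TE 1, 3 and 4, with 8, 7 and 10. The others were Mycbp, a partner of MYC, Sec23a of the COPII coat, Mmd, Immp2l of the mitochondrial inner membrane peptidase, Aldh9a1, Caprin2, Cdr2, Tmem126b, an assembly factor of respiratory complex I, and Tom1, an endosomal adaptor. Over the 12, ranks were 62 to 1293 in WT TE with 13 to 32 fragments, and 2999 to 45844 with 4 to 12 fragments at the 30 TPdh-/- TE peaks found there. No rank of one genotype reached into the range of the other, which the choice of the regions fixes. Over the 99 regions the median rank, as a share of the length of the list, was 3.74% to 26.4% in WT TE and 16.9% to 41.0% in TPdh-/- TE where a peak was found, and these ranges overlapped.

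**Figure D3:**
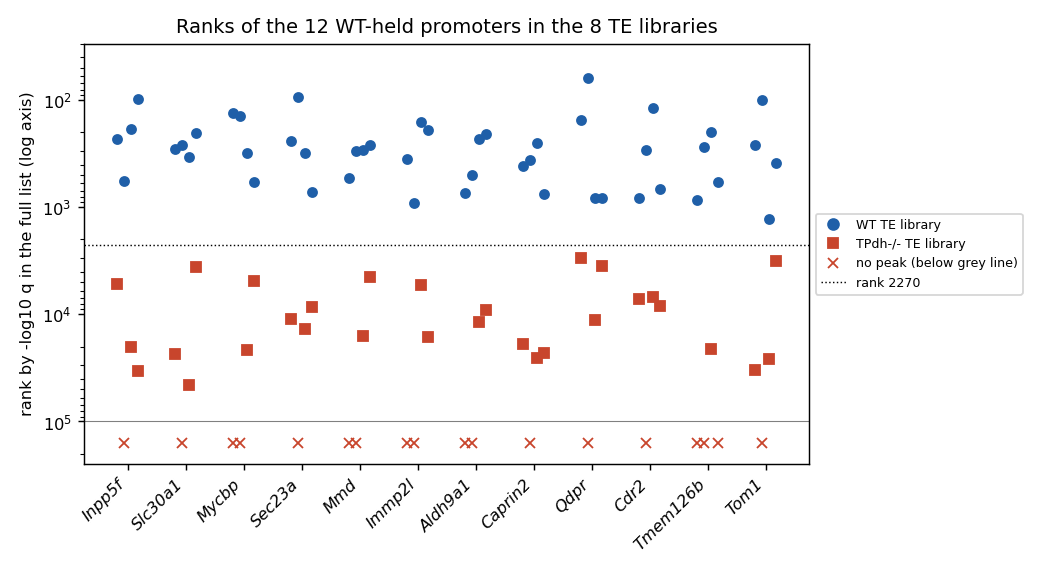
Rank of the peak (vertical axis, log scale, best ranks at the top) in the 4 WT TE libraries (circles) and 4 TPdh-/- TE libraries (squares) at the 12 leading promoters (horizontal axis) held in equal lists by WT TE, with a dotted line at rank 2270 and a cross below the grey line where a library had no peak. WT TE points lie between ranks 62 and 1293, and the TPdh-/- TE points, from longer lists, between 2999 and 45844, a separation that the choice of the regions fixes.

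In the full TPdh-/- TE lists part of these regions had a peak. Of the 99 regions, 94 had a peak in at least 1 full TPdh-/- TE list, 27 in 1, 44 in 2, 20 in 3 and 3 in all 4. TPdh-/- TE 1 to 4 held 36, 10, 68 and 73 of them (187 of 396 possible peaks, 47.2%), fewest in the library of lowest coverage. The 3 held by all 4 were the promoters of Serf2, of Ywhaq, which encodes a 14-3-3 protein, and of Ppp2r5a, a regulatory subunit of protein phosphatase 2A. The 5 with no TPdh-/- TE peak were those of Pdcl, Zyg11b, Ccnf, Gdpd5 and Tmem43. Both groups of names were chosen after their values were seen.

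The level at the 99 regions depends on what it is divided by. The median summit pileup was 15 to 19 fragments in the WT TE libraries and 4 to 8 in the TPdh-/- TE libraries. Divided by background coverage it was 11.3 to 23.6 in WT TE and 14.3 to 23.2 in TPdh-/- TE, and the ranges overlapped. The deposited fold enrichment, over the local background and with 1 added to both terms, was 5.64 to 8.11 in WT TE and 4.19 to 5.54 in TPdh-/- TE, without overlap. The TPdh-/- TE values cover only the regions where a peak was called, which leaves out the lowest. The choice of the regions, in every WT TE and no TPdh-/- TE equal list by q-value, itself favors higher enrichment in WT TE. Over the whole equal lists the same ratio was 9.85 to 20.4 in WT TE and 23.8 to 42.5 in TPdh-/- TE, without overlap, and the fold enrichment 4.97 to 7.56 and 6.72 to 8.91, which overlapped.

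With all peaks, the 8 lists merged into 204393 regions, 91.4% of them found in a single library. WT TE alone held 56 (0.0274%), 53 of them protein-coding promoters, and TPdh-/- TE alone 23 (0.0113%). The 56 became 96, 111, 246 and 102 without WT TE 1, 2, 3 and 4, and 120 and 174 without TPdh-/- TE 3 and 4. They became 32, and the 23 became 11, where a peak had to cover at least 50% of its region, and a −log10 q of at least 5 gave 2 for TPdh-/- TE. The WT TE promoters with the highest values were those of Zyg11b, a substrate receptor of a ubiquitin ligase, Pdcl, Btrc, also a ubiquitin ligase receptor, Ccnf, which encodes cyclin F, Gdpd5, Ostc of the oligosaccharyl transferase, Tonsl and Trmt10c, which act in DNA repair and in mitochondrial tRNA processing, Mettl22 and Tmem43. Zyg11b (chr4:108300978-108301290) ranked 794, 510, 99 and 799 in WT TE 1 to 4 with 18, 15, 23 and 18 fragments. Ccnf (chr17:24251116-24251723) ranked 970, 1794, 978 and 284 with 17, 12, 15 and 22 fragments. Neither had a peak in any of the 4 TPdh-/- TE lists, which were longer but came from libraries of lower background coverage. What part coverage had in this was not tested. In TPdh-/- TM, Zyg11b had 7, 7 and 4 fragments in 3 libraries and Ccnf 4 in 1.

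Only 3 of the 56 lay away from the promoter of a protein-coding gene, and they are named after their values were seen. An intron site of Runx1, a transcription factor that CD8 T cells need (chr16:92620884-92621334, 74392 bp from the nearest start of a protein-coding gene and 8289 bp from that of Gm26626), had 14, 10, 12 and 12 fragments in WT TE 1 to 4. An intergenic site 18101 bp from the start of Scd1, a fatty acid desaturase (chr19:44388386-44388866), had 16, 8, 18 and 19, and no peak in any TM library either. The third was an exon site of Prr36. In the equal lists the 5 of 99 outside protein-coding promoters were the start of the noncoding Dancr, and sites nearest to Pum2, Vmn1r2, Mki67 and C130026I21Rik. The Mki67 site lay 19521 bp from the start of this proliferation marker and had 14, 13, 17 and 19 fragments in WT TE, against 6 and 9 in TPdh-/- TE 1 and 4.

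The regions held by TPdh-/- TE alone were mostly distal, as were all regions. Of the 23, which became 117, 198, 96 and 94 without TPdh-/- TE 1, 2, 3 and 4, 3 (13.04%) were protein-coding promoters, 7 (30.4%) lay in introns and 13 (56.5%) between genes, against 8.11%, 40.8% and 46.0% of all 204393 regions. At 19 of the 23 (82.6%) the summit lay in soft-masked repeat sequence, against 71.6% of the 81 regions held by all 8 TE libraries, 3.57% of the 56 WT-held regions, 2.02% of the 99, and 33.5% of autosomal positions. With all peaks at soft-masked summits left out, 2 regions were held by TPdh-/- TE and 54 by WT TE. Their median GC content over 200 bp was 43%, against 64.5% and 65.5%. The strongest was the Litaf site printed above (chr16:10975068-10975247, 455 bp from a start, in an intron). It ranked 24, 14, 31 and 13 in TPdh-/- TE 1 to 4 with 73, 50, 63 and 165 fragments and had no peak in WT TE, and it is the one region of the equal lists held by TPdh-/- TE. Elsewhere within 1000 bp of a Litaf start WT TE 1 had a peak of 10 fragments and WT TE 2 one of 7. The count of 1 became 2 without WT TE 2, 3 or 4 or TPdh-/- TE 1, 3 without TPdh-/- TE 3 or 4, and 5 without TPdh-/- TE 2. That of regions where TPdh-/- TE ranked ahead went from 2 to 7 without WT TE 2, 13 without TPdh-/- TE 2 and 4 without TPdh-/- TE 3 or 4. The second region where TPdh-/- TE ranked ahead was a promoter of a noncoding gene (chr2:57629489-57629726), with 27, 29 and 17 fragments in WT TE 1, 2 and 3 and 36, 22, 50 and 46 in TPdh-/- TE 1 to 4.

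The other sites named here were weaker. The Pid1 intron site (chr1:84373478-84373652) had 11, 6, 11 and 10 fragments. The site near Ptpn12, a tyrosine phosphatase gene, had 7, 6, 8 and 14 fragments (chr5:20978750-20979623). Sites near Lrrtm3, Acvr2a, Itga2 and D3Ertd751e and in introns of Nek7, Macrod2 and Thsd7b followed, with 3 to 12 fragments. Those near Lrrtm3, Acvr2a and D3Ertd751e lay 1076927 to 1835956 bp from the nearest start of a protein-coding gene, so these names only mark their place. Over the 23 regions the median pileup was 5, 5, 5 and 8 fragments in TPdh-/- TE 1 to 4.

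The second promoter of the 23 was that of Ube2c (chr2:164769395-164769912), which encodes the ubiquitin-conjugating enzyme that works with the anaphase-promoting complex. It had 5, 9, 6 and 9 fragments in TPdh-/- TE and no peak in WT TE. The third was that of 5031439G07Rik, with 5, 4, 5 and 7. Counted by gene instead of by region, 15 promoters (0.125% of the 12002 with a peak in any TE library) were held by all 4 TPdh-/- TE and no WT TE library, and 46 (0.383%) the reverse. The 46 became 73, 76, 175 and 80 without WT TE 1, 2, 3 and 4 and 104 and 157 without TPdh-/- TE 3 and 4, and the 15 became 27 without WT TE 2 and 67, 83, 31 and 36 without TPdh-/- TE 1, 2, 3 and 4. The 15 became 1 at a −log10 q of at least 5, 2 and 48 with windows of 500 and 2000 bp around a start, and 5 without soft-masked summits. In equal lists 114 of 4869 (2.34%) were held by WT TE (172, 262, 690 and 205 without WT TE 1, 2, 3 and 4, and 33 with the best 1000 peaks) and 1 (0.0205%), Litaf, by TPdh-/- TE, also when 1 library of the other genotype was allowed (0.0205%). The 15 include Akt2, a kinase of insulin signaling, Pik3cg, the leukocyte PI3-kinase gamma, Stxbp2, which is needed for the release of cytotoxic granules, Adcy6, Acp5 and Ampd3. Their pileups were 3 to 13 fragments (median 5), against 5 to 25 (median 13) at 42 and 11 to 31 (median 16.5) at 4 of the 46. No gene passed Fisher's exact test after adjustment (0 of 12002 with all peaks and 0 of 4869 in equal lists, smallest adjusted p 1), and 61 and 115 had an unadjusted p under 0.05.

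Genes of pyruvate and acetyl-CoA metabolism and the TCA cycle were taken first among functional groups. Of 39 members, 33 had a promoter peak in any TE library, 21, 25, 11 and 24 of them in WT TE 1 to 4 and 13, 2, 20 and 23 in TPdh-/- TE 1 to 4. With all peaks the median member was found in 1 library fewer in TPdh-/- TE. The same median was found in the DNA replication and cell cycle, proteasome and AP-1 groups, and over all 12002 genes it was 0. In equal lists 22 of the 39 members had a peak. Of these, 20 (90.9%) were found in more WT TE libraries, against 4230 of all 4869 genes (86.9%). Held by all 4 WT TE and at most 1 TPdh-/- TE library were Dld, Idh3a and Acss2 with all peaks, out of 237 genes (1.97%), and Mpc2, Cs and Aco1 in equal lists, out of 190 (3.9%).

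The promoter of Dld, the E3 subunit that PDC shares with other dehydrogenases (chr12:31351141-31351535), had 11, 7, 11 and 14 fragments in WT TE 1 to 4 and no peak in TPdh-/- TE. Idh3a, a subunit of the NAD-dependent isocitrate dehydrogenase, had 11, 7, 15 and 14 in WT TE and 4 in TPdh-/- TE 3 alone. Acss2, which makes acetyl-CoA from acetate, had 21, 9, 16 and 18, and 5 in TPdh-/- TE 4 alone. Each of these peaks was present in every WT TE library, which the rule for naming them fixes. Divided by background coverage, Idh3a was at 9.02 to 11.01 in WT TE and at 15.4 in TPdh-/- TE 3, above every WT TE value. Acss2 was at 11.26 to 18.6 in WT TE and at 11.24 in TPdh-/- TE 4, just below the lowest WT TE value. Scaled values exist only for libraries where a peak was called.

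Cs, the citrate synthase, ranked 1325, 2167, 251 and 592 in WT TE 1 to 4 and 13225, 2612 and 2906 in TPdh-/- TE 1, 3 and 4, with 17, 13, 20 and 21 against 6, 10 and 11 fragments. Mpc2, a subunit of the mitochondrial pyruvate carrier, ranked 576, 594, 2033 and 1008 against 20489, 7958 and 4614. Aco1, the cytosolic aconitase, ranked 319, 155, 1023 and 1725 against 10596, 23418 and 23773. None of the 3 had a peak in TPdh-/- TE 2, the library of lowest coverage. Divided by background coverage, Cs was at 13.5 to 20.4 in WT TE and at 14.3, 38.6 and 24.7 in TPdh-/- TE 1, 3 and 4. Mpc2 was at 9.15 to 26.7 against 14.3, 30.9 and 22.5. Aco1 was at 9.85 to 31.5 against 16.7, 19.3 and 13.5. The ranges overlapped at all 3. The TPdh-/- TE lists are the longer ones, and as a share of the length of its list Cs stood at 11.1% to 15.5% in WT TE and at 37.8%, 3.41% and 5.28% in TPdh-/- TE 1, 3 and 4, which overlap.

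Other members of this pathway were found in both genotypes. Among PDC genes and their regulators, Pdhb had a peak in 4 WT TE and 3 TPdh-/- TE libraries, Pdp1, a phosphatase that activates PDC, likewise in 4 and 3, and Pdhx in 3 and 3. Pdk1, the kinase that inhibits PDC, had 15, 13 and 13 fragments in WT TE 1, 2 and 4 and 6 in TPdh-/- TE 4. Acly, which cleaves exported citrate to acetyl-CoA, had 19, 7, 15 and 23 in WT TE and 6 and 5 in TPdh-/- TE 3 and 4. At both, every TPdh-/- TE pileup lay below every WT TE pileup, among the libraries with a peak. Divided by background coverage the values overlapped, at 8.37 to 20.4 in WT TE and 13.5 in TPdh-/- TE 4 for Pdk1 and at 10.6 to 16.8 in WT TE and 23.2 and 11.2 in TPdh-/- TE 3 and 4 for Acly. Me2, the mitochondrial malic enzyme, was found in 3 WT TE and all 4 TPdh-/- TE libraries, with 8, 8, 8 and 14 fragments in the latter. Divided by background coverage, Me2 was at 15.1, 26.7 and 9.66 in WT TE 1, 2 and 4. In TPdh-/- TE 1 to 4 it was at 19.1, 46.2, 30.9 and 31.5.

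Housekeeping groups were found in fewer TPdh-/- TE equal lists, as promoters overall were. In equal lists, DNA replication and cell cycle genes had a peak at 18, 15, 18 and 23 promoters in WT TE 1 to 4 and at 1, 0, 2 and 5 in TPdh-/- TE, with 40 of 42 members that had a peak (95.2%) found in more WT TE libraries. For cytosolic ribosomal proteins these counts were 12, 8, 17 and 22 against 0, 0, 1 and 3 (35 of 37 members), for oxidative phosphorylation 15, 8, 15 and 19 against 2, 1, 0 and 5 (36 of 42), and for splicing 15, 14, 16 and 13 against 1, 1, 0 and 7 (34 of 39). Among all 4869 genes the promoters found per library were 2071, 1611, 1832 and 2093 in WT TE and 257, 91, 245 and 639 in TPdh-/- TE. Of these genes, 4230 (86.9%) were found in more WT TE libraries. With all peaks the same groups overlapped: replication and cell cycle genes numbered 36, 39, 18 and 36 in WT TE and 18, 8, 33 and 37 in TPdh-/- TE. Among members held by all 4 WT TE and no TPdh-/- TE library were Rps3 with all peaks and Rps23 and Ccna2, which encodes cyclin A2, in equal lists. Of all genes, 46 of 12002 (0.383%) were held in this way with all peaks and 114 of 4869 (2.34%) in equal lists. Ccna2 had 17, 15, 12 and 18 fragments in WT TE and 8 and 7 in TPdh-/- TE 3 and 4.

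Other groups gave few single genes. Among 412 zinc finger genes, 279 had a peak, and Zfp414, Zfp638, Zfp763 and Zfp866 were held by all 4 WT TE and at most 1 TPdh-/- TE library, as were 237 of all 12002 genes (1.97%). Zfp62 and Zfp827 were held the other way round, as were 31 (0.258%) in all. Among 78 genes of ubiquitin conjugation and removal, with the same shares of all genes beside them, these were Ube2g1 and Usp31 for WT TE and Ube2c for TPdh-/- TE. Glycolysis genes, which carry glucose to pyruvate, were found at 6, 16, 4 and 6 promoters in WT TE 1 to 4 and at 5, 4, 15 and 12 in TPdh-/- TE 1 to 4, with 5 members in more WT TE and 9 in more TPdh-/- TE libraries and none called. Genes of histone acetylation and deacetylation, the enzymes that use and remove acetyl groups on chromatin, were found at 11, 10, 5 and 14 against 4, 7, 10 and 13, again with none called. Mitochondrial ribosomal proteins (1 called), the proteasome (Psma6 and Psmg4), splicing (Srsf6), translation factors (Kars) and oxidative phosphorylation (Uqcrq) gave 1 or 2 genes held by WT TE each, and mitochondrial import and replication-dependent histones none.

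Genes of the effector and memory programs varied between libraries of one genotype. Of 39 effector regulators and products, 18 had a promoter peak in any TE library, 5, 10, 1 and 1 of them in WT TE 1 to 4 and 3, 1, 5 and 8 in TPdh-/- TE 1 to 4. Prf1, the pore-forming protein of cytotoxic granules, had 10 and 8 fragments in WT TE 1 and 2 and 5 and 8 in TPdh-/- TE 3 and 4. Of 23 memory and quiescence genes, 18 were seen, at 4, 4, 0 and 1 promoters in WT TE 1 to 4 and 4, 2, 4 and 14 in TPdh-/- TE 1 to 4. TPdh-/- TE 4 alone held 14 (60.9%, against 29.1% of all 20780 protein-coding genes), and the other TPdh-/- TE libraries no more than WT TE 1 and 2. Of 19 genes of the AP-1 family, 15 had a peak, at 9, 7, 3 and 8 promoters in WT TE 1 to 4 and 3, 1, 6 and 8 in TPdh-/- TE 1 to 4, which overlap, and Fos and Atf7 were held by all 4 WT TE and 1 TPdh-/- TE library, among the 237 of 12002 genes (1.97%) with at most 1. Fos, a subunit of AP-1, which T cell receptor signaling induces, had 14, 8, 17 and 17 fragments in WT TE and 6 in TPdh-/- TE 1 alone. Of 39 Hox genes, which T cells keep silent for the most part, 15 had a peak, at 0, 1, 0 and 0 promoters in WT TE and 3, 3, 8 and 4 in TPdh-/- TE. That is 7.69%, 7.69%, 20.5% and 10.3% of them in TPdh-/- TE 1 to 4, each below the 12.8%, 8.46%, 27.2% and 29.1% of all protein-coding genes in the same library.

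Sequence composition set the genotypes apart in equal lists. No test was run on it. Median GC content over 200 bp around the summit was 59.5% to 64.5% in WT TE and 45% to 48% in TPdh-/- TE, the ratio of observed to expected CpG 0.685 to 0.814 and 0.109 to 0.179, and the share of summits in soft-masked sequence 13.6% to 29.8% and 55.2% to 63.8%. Among promoter peaks, GGGCGG lay within the window at 68.1% to 72.7% in WT TE and at 18.0% to 62.1% in TPdh-/- TE, and 3.65% to 7.78% against 12.6% to 42.7% of summits were soft-masked. Among intron and intergenic peaks, the AP-1 motif TGANTCA was found at 5.85% to 8.66% in WT TE and 4.27% to 4.92% in TPdh-/- TE, and the RUNX motif TGTGGTT at 5.95% to 8.20% and 3.30% to 4.01%. No library of one genotype reached the other in any of these. The motifs quoted are a selection from those of the next paragraph, and values of the others in these peaks are not given. The soft-masked share did overlap within introns (38.6% to 65.0% in WT TE and 56.2% to 68.2% in TPdh-/- TE) and between genes (50.2% to 67.0% and 58.7% to 71.2%). Both strands were searched, and a match is no evidence of binding.

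Compared with all annotated starts, the 94 WT-held promoters of the equal lists were rich in the boxes capitalized above. GGGCGG was found within the 200 bp window at 85 of them (90.4%) and CCAAT at 51 (54.3%), against 32.8% and 23.6% of the windows around all 90262 starts of protein-coding transcripts. The ETS motif CCGGAAG was at 11 (11.7%, against 8.16%) and the E-box CACGTG at 10 (10.6%, against 4.76%). The NRF1 motif, TGACGTCA of CREB, the YY1 motif and TGANTCA of AP-1 were at 1 each, and TGTGGTT of RUNX and AGGTGTGA of T-box factors at none (0.742%, 1.44%, 1.23%, 4.04%, 3.03% and 0.644% of all starts). Among the 53 WT-held promoters of the full lists the shares were 67.9% for GGGCGG, 35.8% for CCAAT, 13.2% for the ETS motif, 3.77% for the E-box and 7.55% for the NRF1 motif. The E-box thus stood above its share of all starts in the first set and below it in the second. The windows were centered on summits for the held promoters and on starts for all transcripts. Many of the starts had no peak, and GGGCGG was already more frequent among all WT TE promoter peaks, as given above. For the other motifs no share among all promoter peaks is given.

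With all peaks, the 81 regions held by all 8 libraries (0.0396%) gave no clear difference in height. Fold enrichment was compared on the log2 scale with limma, each library centered on its median over these regions, and none passed an adjusted p of 0.05 in either direction (0 of 81, 15 or 18.5% at an unadjusted p under 0.05). The lowest p belonged to an intergenic site on chromosome 18 nearest to Neto1, at 32.0, 19.1, 39.2 and 39.6 in WT TE and 16.7, 10.7, 13.7 and 12.01 in TPdh-/- TE (log2 difference -1.23, SE 0.284, limma adjusted p = 0.0845). Without WT TE 2 this site passed (log2 difference -1.53, limma adjusted p = 0.00121), the only one to do so when single libraries were left out. A site 24789 bp from Rpp21 (chr17:36231311-36231604) was at 25.9, 25.4, 25.3 and 24.3 against 16.7, 15.4, 16.5 and 17.9 (-0.58, SE 0.164, limma adjusted p = 0.130). The promoter of Serf2 (chr2:121449030-121449522) was at 6.77, 8.19, 5.81 and 7.31 against 3.99, 4.85, 4.64 and 5.54 (-0.54, SE 0.177, limma adjusted p = 0.166). After centering, all TPdh-/- TE values lay below all WT TE values at 5 of the 81 regions, these 3 among them, and above them at 1. The latter had a log2 difference of 0.60 (SE 0.197, limma adjusted p = 0.166), the fourth lowest p of the 81. The third belonged to a site nearest to Gm8797 (chr3:5860341-5860696), at 17.4, 24.5, 20.4 and 22.8 against 9.86, 11.5, 15.3 and 17.2 (-0.66, SE 0.190, limma adjusted p = 0.130). Without centering, 7 regions lay below and 3 above.

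Of the 10 protein-coding promoters whose summit was not soft-masked, 8 had a negative log2 difference (median -0.33, range -0.62 to 0.11). Of the other 71 regions, 30 had a negative and 41 a positive difference (median 0.07, range -1.23 to 0.92). The split was made after the sequences of the TPdh-/- held sites had been seen and was not tested.

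**Figure D4:**
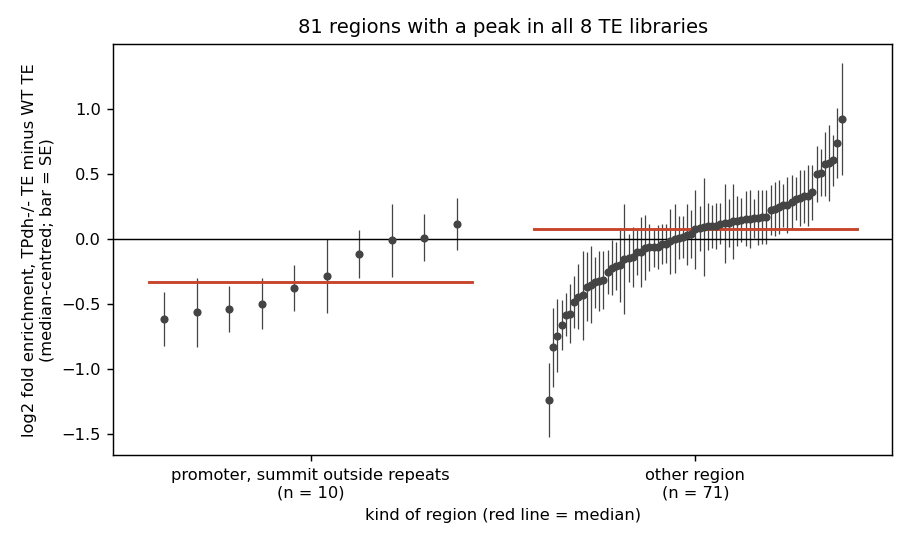
Difference in log2 fold enrichment, TPdh-/- TE minus WT TE (vertical axis), at the 81 regions with a peak in all 8 TE libraries, split into the 10 promoters with a summit outside repeats and the other regions (horizontal axis), with a point for each region, a bar for its SE and a red line at each median. Of the 10 promoters, 8 lie below 0 (median -0.33), and no region passed an adjusted p of 0.05.

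Promoters of the TPdh-/- TE lists recurred less between libraries, a difference that was not tested. In equal lists 44.8% of the promoter regions of WT TE were held by at least 2 of its libraries and 177 by all 4, against 9.06% and 10 in TPdh-/- TE. Introns recurred at 9.80% and 3.01%, and intergenic sites at 15.2% and 3.66%. In both genotypes most distal regions of the equal lists were found in a single library.

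In TM the promoter share overlapped between the genotypes. The protein-coding promoter share of equal lists was 22.7%, 6.78%, 6.96% and 16.7% in WT TM 1 to 4 and 13.5%, 12.3%, 27.4% and 30.5% in TPdh-/- TM 1 to 4, so that all 12 libraries other than WT TE lay below the lowest WT TE library. Of the 99 regions, 92 had a peak in at least 1 WT TM list and 98 in at least 1 TPdh-/- TM list, and 35 and 50 were in the equal list of at least 1. The Litaf site was present in all 4 WT TM libraries, with 140, 144, 226 and 123 fragments, and in 2 TPdh-/- TM libraries, with 71 and 86. Of the 4 groups, WT TE was the one in which no library had it. Of the 23 regions, 15 had a peak in at least 1 WT TM and 17 in at least 1 TPdh-/- TM library.

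**Figure D5:**
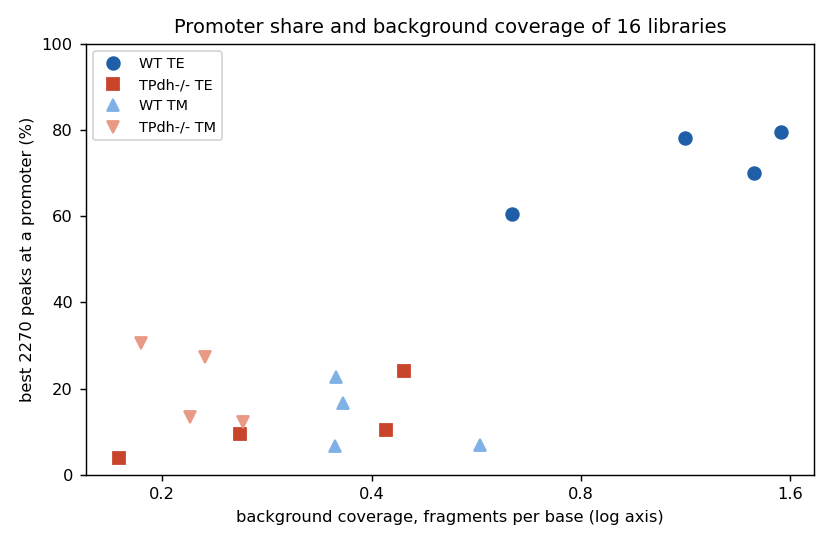
Percent of the best 2270 peaks at a protein-coding promoter (vertical axis) against background coverage in fragments per base (horizontal axis, log scale) for the 16 libraries of the series; each point is a library. The 4 WT TE libraries have both the highest shares (60.6% to 79.6%) and the highest coverage (0.636 to 1.55), and no other library reaches either.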

How the data were processed

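The 16 samples were profiled by ATAC-seq, and the authors trimmed reads with Trimmomatic, aligned them to GRCm38 with BWA 0.7.17, removed multiply mapping and blacklisted reads and called peaks in each sample with MACS2 2.2.7.1. The deposited narrowPeak lists hold, for each peak, a fold enrichment at the summit over local background, −log10 p-values and −log10 q-values, and an integer score. From these, the summit pileup (fragments) and background were solved, since fold enrichment is the ratio of both after adding 1. Peaks on 19 autosomes were kept and each summit was assigned to a class with the GENCODE annotation of GRCm38. The equal lists hold 2270 peaks, the length of the shortest WT TE list. Overlapping peaks (at least 1 bp) were merged into regions. A gene counted as found where a summit lay within 1000 bp of any of its starts.

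Groups were compared with two-sided exact permutation tests over 70 arrangements of 4 against 4 libraries (smallest p 0.0286), genes with Fisher's exact test, and the 81 shared regions with limma 3.58.1 (R 4.3.3), all with Benjamini-Hochberg adjustment. Other steps used Python 3.11.15, pandas 2.3.3, numpy 2.4.6 and scipy 1.17.1, and the tests were tested on simulated data. The regions named were the 12 leading ones held by WT TE in equal lists, the 10 held by WT TE and the 12 held by TPdh-/- TE with all peaks, and list members held by 4 libraries of one genotype and at most 1 of the other. One of these sites is not reported here. The members and gene lists were chosen with earlier results of these data known. Alternatives were ranking by fold enrichment, the best 1000 peaks, a −log10 q of at least 5, promoter windows of 500 and 2000 bp, a replicate block, a wider overlap, removal of soft-masked summits, and leaving out single libraries. Low pileups limit the precision of single peaks, and of read depth the study's methods give only a minimum for all libraries, while the depth of each library is not given in the sources used here.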

Additional observations from a re-analysis of the deposited data

Results flagged for a closer look

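The effect of genotype on the promoter share differed between effector and memory cells. In equal lists the share was 60.2 percentage points lower in TPdh-/- TE than in WT TE and 7.63 points higher in TPdh-/- TM than in WT TM, a difference of 67.8 points (permutation of residuals, p = 0.00022, smallest possible 1e-05, 100000 draws). With all peaks the memory difference was -0.122 points and the difference between the effects 46.2 points (permutation p = 0.00155). The 4 WT TE libraries also had the highest background coverage of the 16, and the part of coverage in this difference was not tested.

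At 2 of 68 groups of values checked, the gap between 1 library and the other 3 took most of the range of the group, where chance alone marks about 5%. The groups held list lengths, background coverage, class shares and numbers, and pileups at named regions. Both marked groups were pileups. The Caprin2 promoter had 20 fragments in WT TE 1 and 17 in each of the other WT TE libraries, a gap of 3 fragments above tied values. The Nek7 intron site had 12 fragments in TPdh-/- TE 4 and 5 to 6 in the others.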

How the results depend on the processing

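The lower promoter share of TPdh-/- TE and the higher intron, intergenic and exon shares kept their direction under every alternative run, and 140 of the 190 class values computed under alternatives kept direction and side of the threshold. The cause of the changes below was not tested. Ranking by column 7 (fold enrichment) gave 2 TPdh-/- held regions in equal lists. The best 1000 peaks gave an exon difference of 0.6 points (exact permutation p = 0.0571), 31 WT-held regions, 42 with WT TE ranks ahead and 33 WT-held promoters. A −log10 q of at least 5 gave a log2 difference of 1.11 for noncoding promoter peaks, 2 TPdh-/- held regions and 1 TPdh-/- held promoter. Noncoding promoter shares were lower by -0.769 (all) and -0.738 points (equal) with a 500 bp window and reversed to 0.637 and 1.37 with 2000 bp, and TPdh-/- held promoters numbered 2 and 48. In 2 alternatives chosen after seeing the data, peaks were held to a wider overlap or left out where soft-masked. Requiring a peak to cover at least 50% of a region left 32 and 11 (all) and 23 WT-held regions (equal). The planned rule of 50% overlap between peaks left the merged regions as they were. Without peaks at soft-masked summits, 2 regions and 5 promoters were held by TPdh-/- TE with all peaks and 0 regions, 0 ranks ahead and 0 promoters in equal lists, while the WT-held regions were 54 and 88 and the promoter differences -53.8 and -61.8 points. At the shared regions, limma called 2 lower without centering, 1 lower with column 9, and 1 lower and 4 higher among 784 regions held by 6 or more libraries.

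The replicate numbers did not pair the libraries (same-number correlations -0.084, -0.411, -0.361 and -0.172). With a replicate block no class result could pass (exact sign-flip permutation p = 0.125, the smallest possible). The differences were then -46.3, 1.299, 20.5 and 24.9 points (promoter, exon, intron, intergenic, all peaks), -60.2, 0.771, 26.0 and 33.5 points (equal lists), and 2.64, 3.78, 3.94 and 4.04 in log2 numbers of noncoding promoter, exon, intron and intergenic peaks. At the shared regions limma with the block called 0 lower and 0 higher (13 at an unadjusted p under 0.05, smallest limma adjusted p 0.0850).

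Leaving out single libraries gave, with all peaks, differences of -55.7 to -41.1 (promoter), -0.392 to -0.195 (noncoding promoter), 17.7 to 24.8 (intron) and 22.4 to 29.8 points (intergenic), and in equal lists 0.482 to 0.870 (exon). Log2 numbers were 2.19 to 3.10 (noncoding promoter), 3.12 to 4.43 (exon), 3.22 to 4.72 (intron) and 3.37 to 4.84 (intergenic). Regions held by WT TE numbered 61 to 246 (all) and 100 to 633 (equal) and by TPdh-/- TE 23 to 198 and 1 to 5, ranks ahead 136 to 854 and 2 to 13, promoters 54 to 175 and 115 to 690 for WT TE and 15 to 83 for TPdh-/- TE (all), and shared regions called lower 0 to 1. The highest WT TE counts came without WT TE 3, whose list sets the length of the equal lists.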
